A study of Mus musculus with 12 samples.

Results

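The 9 genes described here (Glul, Slc1a2, Rhbg, Lect2, Axin2, Rnf43, Znrf3, Lgr5 and Tbx3) are known beta-catenin target genes of the hepatocytes that surround the central vein of the liver lobule. They were taken by gene symbol from a table of 56441 genes. The cytochrome P450 genes of the same zone were left out, and all 9 symbols were found. Sequencing of liver RNA gave 12 libraries, 3 in each of 4 groups. C57BL/6 mice received an AAV8 virus carrying fumarate hydratase (fasted FH) or the AAV8 vector alone (fasted vector) and were fasted for 24 h before collection. Mice of the ob/ob strain, which lack functional leptin, received the same FH virus (ob/ob FH) or the vector alone (ob/ob vector) and were kept on a high-fat diet. In both models the virus was given into the tail vein at 6 to 8 weeks of age, 1 month before the fast or the end of the diet, and the series asks what FH, the enzyme that turns fumarate into malate, does to a fatty liver. The AAV8 virus is named as specific to the liver, without its promoter or the species of its FH sequence. The sex of the mice is not given, and every mouse had received a virus. The labels name both liver tissue and hepatocytes, and markers of other liver cells were present in all 12 libraries.

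Wnt ligands and R-spondin, released mainly by endothelial cells of the central vein and the nearby sinusoids, keep beta-catenin active in the neighbouring hepatocytes. Stable beta-catenin enters the nucleus and acts with TCF/LEF factors on genes that give these cells their glutamine synthesis and drug metabolism. Some of the targets close a loop: AXIN2 belongs to the complex that destroys beta-catenin, RNF43 and ZNRF3 remove Wnt receptors from the cell surface, and LGR5 binds R-spondin and so blocks RNF43 and ZNRF3.

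TCF/LEF factors bind DNA at a short element, and the promoters of 4 members are printed to show which of them carry its letters near a start that RefSeq annotates. Each window holds the 250 bases before that start, read 5′ to 3′ on the gene's strand, from RefSeq on GRCm38.p6. The Slc1a2 window belongs to an internal start and lies far inside the gene as GENCODE draws it, so it does not show the bases before the gene's outermost start. Capitals mark the letters ATCAAAG or CTTTGAT, or the core TCAAAG or CTTTGA contained in them, so that both strands were searched.
Slc1a2 promoter, chr2:102706188-102706437, plus strand: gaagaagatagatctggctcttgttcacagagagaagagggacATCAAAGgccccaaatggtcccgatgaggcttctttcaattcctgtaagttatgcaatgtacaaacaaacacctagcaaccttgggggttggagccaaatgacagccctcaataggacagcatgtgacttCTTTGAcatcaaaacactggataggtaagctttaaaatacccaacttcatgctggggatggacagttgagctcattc
Lect2 promoter, chr13:56548539-56548788, minus strand: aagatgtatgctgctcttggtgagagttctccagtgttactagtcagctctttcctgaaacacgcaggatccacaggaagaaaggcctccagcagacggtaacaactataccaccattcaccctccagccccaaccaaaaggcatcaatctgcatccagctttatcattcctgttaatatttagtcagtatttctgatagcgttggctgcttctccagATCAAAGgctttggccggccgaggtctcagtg
Glul promoter, chr1:153899679-153899928, plus strand: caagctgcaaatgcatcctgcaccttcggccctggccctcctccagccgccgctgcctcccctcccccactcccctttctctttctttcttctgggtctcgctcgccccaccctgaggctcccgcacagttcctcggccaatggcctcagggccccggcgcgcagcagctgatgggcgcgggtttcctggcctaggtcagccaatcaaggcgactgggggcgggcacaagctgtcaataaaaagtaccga
Axin2 promoter, chr11:108920099-108920348, plus strand: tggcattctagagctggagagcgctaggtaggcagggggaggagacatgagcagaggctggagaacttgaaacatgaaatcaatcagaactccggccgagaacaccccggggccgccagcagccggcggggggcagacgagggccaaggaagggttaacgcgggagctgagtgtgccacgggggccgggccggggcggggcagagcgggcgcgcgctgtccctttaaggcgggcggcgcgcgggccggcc
The longer element was found 1 time in the Slc1a2 window, 207 bases before that internal start, and 1 time in the Lect2 window, 32 bases before the start. Slc1a2 held another core match on the opposite strand, 77 bases before the same start. No match stood in the windows of Glul and Axin2, nor in either window of Rnf43, both of which also lie inside the GENCODE gene. Of 32851 promoter windows of the same length, 3.21% held the longer element and 13.8% the core. These letters are a description of the windows and not evidence of binding. Windows were had for 5 of the 9 members.

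The libraries held 19107050 to 25873379 counts with FH and 12231828 to 14884323 with the vector in the fasted model, and 21632289 to 23506015 with FH and 12573267 to 14496559 with the vector in the ob/ob model. Albumin took 7.90% to 11.1% of the counts of the 6 FH libraries and 3.70% to 5.57% of those of the 6 vector libraries. Malat1, a long RNA kept in the nucleus, stood at 10.5 to 58.4 CPM on plain totals with FH, against 472 to 687 CPM with the vector, and the part of this shift in the results was not tested. Levels are given as CPM, counts relative to the library's total, with totals scaled by TMM, a method that centres the bulk of the genes, and log2 fold changes on plain library totals are given beside those of the members and, for other lists, as counts and for named genes whose call they change. For all 15228 genes tested, plain totals moved the median FH effect by -0.67 log2 units in the fasted model and by -0.62 in the ob/ob model. The 3 ob/ob FH libraries had 2242 to 4992 Xist counts and 0 counts of Y-linked genes, while the other 9 libraries had 1 to 24 Xist counts and 2304 to 5181 Y-linked counts. Sex as read from these genes thus went together with FH in the ob/ob model, and cannot be told apart from it there. Fh1, the mouse gene of the enzyme, averaged 812 ± 104 CPM in fasted FH and 319 ± 85.4 CPM in fasted vector livers, and 679 ± 106 CPM in ob/ob FH and 122 ± 17.9 CPM in ob/ob vector livers (SD, n = 3 each). It rose by 1.35 log2 units in the fasted model (edgeR adjusted p = 9.95e-05) and by 2.48 in the ob/ob model (edgeR adjusted p = 1.79e-06). No label ties the libraries to different mice, and p-values rest on the differences among libraries alone, which may be technical.

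The 9 genes did not all move one way with FH. In the fasted livers Glul and Slc1a2, which make glutamine and take up glutamate, rose more than 2-fold on TMM scaling, Rnf43 rose less, and the very low Rhbg was higher. Znrf3 also passed the test there (log2 0.52, but -0.15 on plain totals). In the ob/ob livers Glul again rose more than 2-fold and Rhbg was higher, and Lect2 passed the test (log2 0.52, but -0.11 on plain totals). Axin2 and Lgr5, the members most often used as readouts of Wnt signalling, passed the test in neither model on TMM scaling, with negative fold changes in both, while on plain totals both genes passed it as lower in both models.

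Of the 9 members, 5 were called higher in the fasted livers at an edgeR adjusted p under 0.05 (Glul, Slc1a2, Rhbg, Rnf43 and Znrf3), where 27.4% of all genes tested were. None was called lower by edgeR or DESeq2, where edgeR called 27.6% of all genes, and 1 member, Axin2, was lower at an unadjusted p under 0.05. The same 5 had groups that did not overlap, where 30.4% of all genes were higher and 30.6% lower without overlap. The median log2 fold change of the 9 was 0.52, beside -0.04 over all genes tested. With FH in the ob/ob model, 3 of 9 were called higher (Glul, Rhbg and Lect2), where 25.8% of all genes were, a share close to that background. None was called lower there by edgeR or DESeq2, nor at an unadjusted p under 0.05, where edgeR called 27.9% of all genes, and the median was 0.07, beside -0.01 over all genes. The same 3 had groups that did not overlap, against 30.6% of all genes higher and 31.2% lower without overlap. On plain library totals 2 members were higher (Glul and Rhbg) and 3 lower (Lgr5, Axin2 and Tbx3) in the fasted livers, against 7.16% and 55.7% of all genes, and in the ob/ob livers 1 was higher (Glul) and 5 lower (Lgr5, Axin2, Tbx3, Rnf43 and Znrf3), against 6.83% and 53.3%. All 9 members passed the filter on low counts, but Rhbg did so through 3 ob/ob FH libraries and 1 fasted FH library, so its rise is not a free observation. Without Rhbg, 4 of 8 members were higher in the fasted livers and 2 of 8 in the ob/ob livers.

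**Figure D1:**
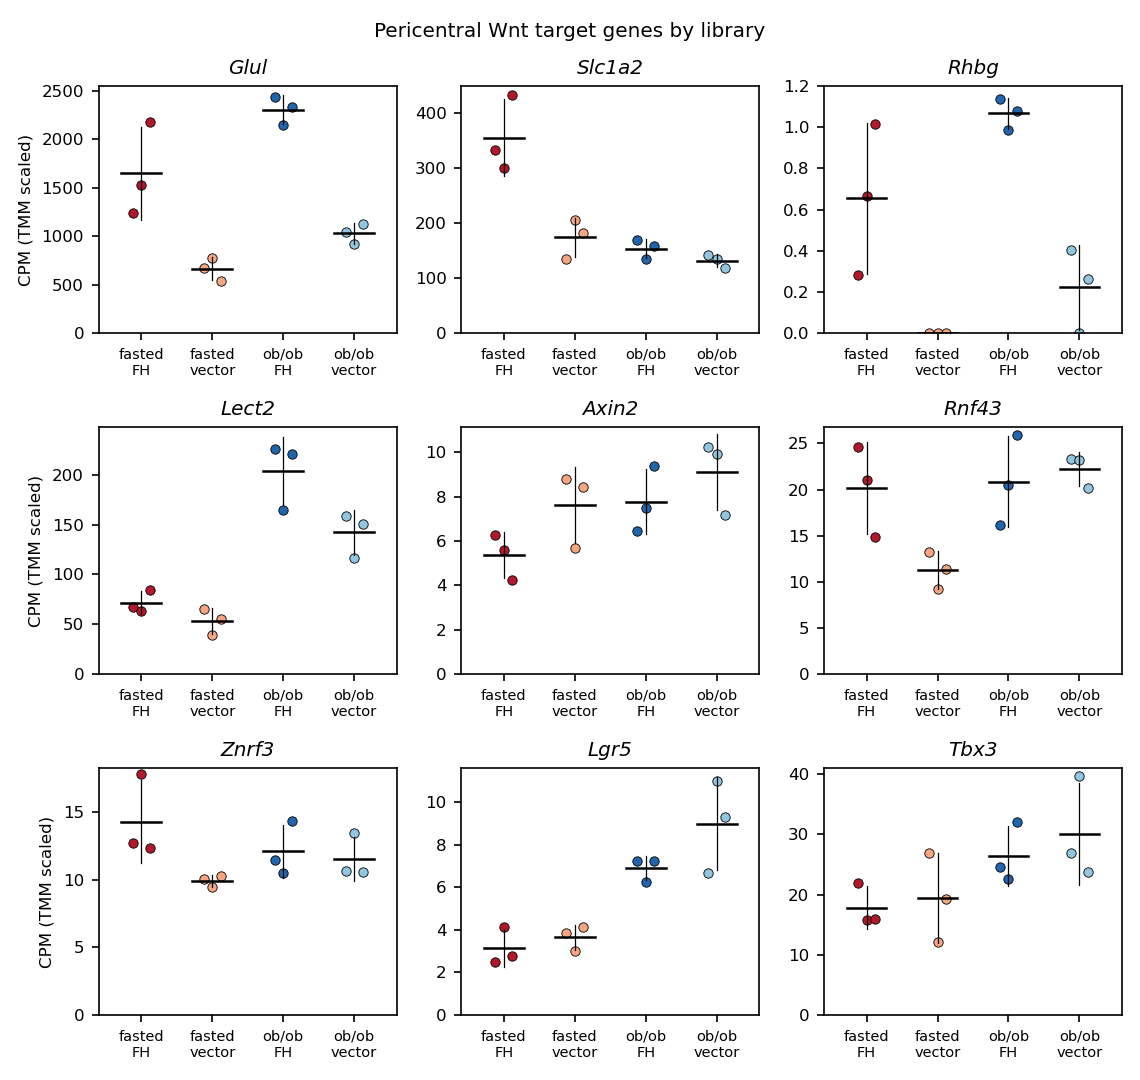
Level of each of the 9 genes in every library, in CPM on TMM-scaled totals, with 1 panel per gene, 1 point per library and a bar at the mean with its SD (n = 3). The FH libraries of Glul stand above all vector libraries of the same model, while those of Axin2, Lgr5 and Tbx3 overlap them.

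Glul encodes glutamine synthetase, which joins ammonium to glutamate and marks the innermost ring of hepatocytes at the central vein. Its level was 1239, 1526 and 2177 CPM in the fasted FH libraries, against 676, 776.5 and 541 CPM in the fasted vector libraries. In the ob/ob model it was 2440, 2149 and 2330 CPM with FH, against 1044, 916 and 1128 CPM with the vector. Groups did not overlap in either model, and fasted FH replicate 3 was the highest of its group. The rise was 2.48-fold in the fasted livers (log2 fold change 1.31, SE 0.21, edgeR adjusted p = 0.000162) and 2.24-fold in the ob/ob livers (1.16, SE 0.21, adjusted p = 0.000402). On plain totals it was smaller and still passed the test, at 0.64 (adjusted p = 0.00854) and 0.54 (adjusted p = 0.0218). The FH effect in ob/ob minus that in fasted livers was -0.15 log2 units (SE 0.29, adjusted p = 0.808). RNA of the whole tissue was measured, so more cells with Glul and more Glul RNA per cell cannot be told apart, and the same holds for each gene below.

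Slc1a2 encodes the glutamate transporter GLT-1, which in liver brings glutamate into pericentral hepatocytes. The fasted FH libraries had 333, 299 and 433 CPM, against 135, 205 and 181 CPM in the fasted vector libraries. The ob/ob FH libraries had 168.5, 134 and 157 CPM, against 141, 135 and 118 CPM in the ob/ob vector libraries. All 3 fasted FH libraries thus stood above the other 9, and the ob/ob groups overlapped. The gene rose 2.05-fold in the fasted livers (log2 1.03, SE 0.18, edgeR adjusted p = 0.00031), a rise that on plain totals was 0.36 and missed the test (adjusted p = 0.0882). The ob/ob log2 fold change was 0.22 (SE 0.18, adjusted p = 0.312), and -0.41 on plain totals. The difference of these effects, -0.81 (SE 0.25), had an edgeR adjusted p of 0.0617, and DESeq2 placed it at -0.78 (adjusted p = 0.0341), so the call depends on the tool. It also depends on the low-count filter, at -0.77 (edgeR adjusted p = 0.0271) without one, and on a library. Without fasted vector replicate 2 the difference was -0.95 (edgeR adjusted p = 0.0478).

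Rhbg encodes an ammonium channel of the hepatocyte membrane and was the lowest member. It passed the filter on low counts only through FH libraries, so its p-values below are not a free observation. Under a filter of 1 CPM in 3 libraries it was not tested. It had 4, 10 and 19 counts in the fasted FH libraries and 0 in each of the 3 fasted vector libraries. It had 22, 19 and 23 counts in the ob/ob FH libraries, against 7, 0 and 5 in the ob/ob vector libraries. Both pairs of groups were free of overlap, and fasted FH replicate 1 held fewer counts than ob/ob vector replicates 1 and 3. With 3 counts per library as the limit that a count of 0 allows, the fasted FH level was at least 3.33-fold higher (edgeR adjusted p = 0.00235), or at least 2.08-fold on plain totals (adjusted p = 0.00516), and this limit covers counting error only. The ob/ob log2 fold change was 2.25 (SE 0.71, adjusted p = 0.0191), which missed the test on plain totals at 1.64 (adjusted p = 0.0697). A gene model on the same strand, Gm38392, overlaps 11330 bases of Rhbg, so reads could be split between them and the values of Rhbg are uncertain, though that model itself had 0 to 1 counts.

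Lect2 encodes a protein that hepatocytes secrete into blood and that is raised in livers with active beta-catenin. The fasted FH libraries had 67.3, 63.3 and 84.7 CPM, against 65.5, 39.6 and 54.9 CPM in the fasted vector libraries. The ob/ob FH libraries had 226, 164 and 221 CPM, against 159, 117 and 151 CPM in the ob/ob vector libraries. The fasted groups overlapped and the ob/ob groups did not. The log2 fold change was 0.43 in the fasted livers (SE 0.20, edgeR adjusted p = 0.0801) and 0.52 in the ob/ob livers (SE 0.20, adjusted p = 0.0378), and on plain totals both were below 0, at -0.25 and -0.11. Leaving out fasted vector replicate 1 brought the fasted value past the threshold, at 0.55 (adjusted p = 0.0408). The ob/ob call was lost on leaving out any of 3 libraries. It came to 0.41 (adjusted p = 0.0966) with ob/ob vector replicate 2 left out, to 0.42 (adjusted p = 0.136) with ob/ob FH replicate 1 left out, and to 0.44 (adjusted p = 0.131) when ob/ob FH replicate 3 was.

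The feedback genes went different ways. Axin2 had 6.29, 5.61 and 4.23 CPM in the fasted FH libraries, against 8.79, 5.68 and 8.43 CPM in the fasted vector libraries. In the ob/ob model it had 6.47, 7.49 and 9.38 CPM with FH, against 10.3, 9.92 and 7.16 CPM with the vector. Groups overlapped in both models, and fasted vector replicate 2 lay within the range of the fasted FH libraries. Its log2 fold change was -0.51 in the fasted livers (SE 0.23, edgeR adjusted p = 0.0784) and -0.23 in the ob/ob livers (SE 0.22, adjusted p = 0.409). Without fasted vector replicate 2 the fasted value was -0.67 and passed the test (adjusted p = 0.0302). On plain totals it fell by 1.18 (adjusted p = 0.00139) in the fasted livers and by 0.84 (adjusted p = 0.00924) in the ob/ob livers.

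Rnf43, one of the ubiquitin ligases that clear Wnt receptors, had 24.7, 21.0 and 14.8 CPM in the fasted FH libraries, against 13.3, 9.21 and 11.4 CPM in the fasted vector libraries. It had 16.1, 20.5 and 25.9 CPM in the ob/ob FH libraries, against 23.4, 23.2 and 20.1 CPM in the ob/ob vector libraries. The fasted groups did not overlap, and the ob/ob FH libraries ranged to both sides of their controls. Rnf43 rose 1.79-fold in the fasted livers (log2 0.84, SE 0.21, edgeR adjusted p = 0.00422), but only by 0.17 on plain totals (adjusted p = 0.542). Its ob/ob log2 fold change was -0.09 (SE 0.20, adjusted p = 0.726), and -0.70 on plain totals (adjusted p = 0.0149). The difference of the FH effects was -0.93 (SE 0.29, edgeR adjusted p = 0.0657), with -0.91 by DESeq2 (adjusted p = 0.043) and -1.11 by edgeR without fasted FH replicate 3 (adjusted p = 0.033). Without the low-count filter edgeR gave -0.89 (adjusted p = 0.00677). A transcript annotated inside an intron of Rnf43 on the same strand, 1110028F11Rik, had 13 to 60 counts per library.

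Znrf3, the related ligase, had 12.7, 17.8 and 12.3 CPM in the fasted FH libraries, against 10.1, 9.45 and 10.3 CPM in the fasted vector libraries. It had 11.5, 10.5 and 14.3 CPM in the ob/ob FH libraries, against 10.6, 13.4 and 10.6 CPM in the ob/ob vector libraries. The fasted groups did not overlap and the ob/ob groups did. Znrf3 rose 1.44-fold in the fasted livers (log2 0.52, SE 0.18, edgeR adjusted p = 0.0232), while plain totals gave -0.15. The call was lost on leaving out vector replicate 1 (0.48, adjusted p = 0.0676), vector replicate 2 (0.50, adjusted p = 0.0571) or FH replicate 2 (0.34, adjusted p = 0.123) of the fasted model. The ob/ob log2 fold change was 0.07 (SE 0.17, adjusted p = 0.761), and -0.55 on plain totals (adjusted p = 0.0215).

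Lgr5, the R-spondin receptor, is in resting liver a gene of the hepatocytes next to the central vein. It had 2.47, 4.14 and 2.78 CPM in the fasted FH libraries, from 35, 62 and 52 counts, against 3.83, 2.99 and 4.12 CPM in the fasted vector libraries, from 54, 50 and 62 counts. It had 7.24, 6.24 and 7.22 CPM in the ob/ob FH libraries, against 6.67, 10.97 and 9.31 CPM in the ob/ob vector libraries. Groups overlapped in both models, and ob/ob vector replicate 2 was the highest of all 12. The log2 fold change was -0.22 in the fasted livers (SE 0.25, edgeR adjusted p = 0.48) and -0.38 in the ob/ob livers (SE 0.22, adjusted p = 0.168). Plain totals gave called values of -0.89 (adjusted p = 0.00817) and -1.001 (adjusted p = 0.00217).

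Tbx3 encodes a T-box transcription factor, and it is a beta-catenin target in liver tumours as well as in pericentral cells. The fasted FH libraries had 21.9, 15.8 and 15.9 CPM, against 26.9, 12.1 and 19.3 CPM in the fasted vector libraries. The ob/ob FH libraries had 24.6, 22.5 and 32.1 CPM, against 26.8, 39.6 and 23.7 CPM in the ob/ob vector libraries. The vector libraries spread more widely than the FH libraries in both models, and the groups overlapped. The log2 fold change was -0.12 (SE 0.27, edgeR adjusted p = 0.724) in the fasted livers and -0.19 (SE 0.26, adjusted p = 0.568) in the ob/ob livers, with -0.79 (adjusted p = 0.025) and -0.80 (adjusted p = 0.021) on plain totals. The opposite strand carries Tbx3os1, which overlaps 697 bases of Tbx3 and was singled out after its values were seen. It averaged 2.31 ± 1.48 CPM in fasted FH and 10.7 ± 4.17 CPM in fasted vector livers, and 1.81 ± 0.365 CPM in ob/ob FH and 15.5 ± 2.96 CPM in ob/ob vector livers (SD, n = 3 each). Tbx3os1 fell by 2.18 log2 units in the fasted (edgeR adjusted p = 0.000523) and by 3.09 in the ob/ob livers (adjusted p = 3.95e-05), and it stayed called on plain totals. Whether reads were counted by strand is not stated in the sources at hand, so reads of Tbx3 and its antisense partner cannot be told apart where they overlap.

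**Figure D2:**
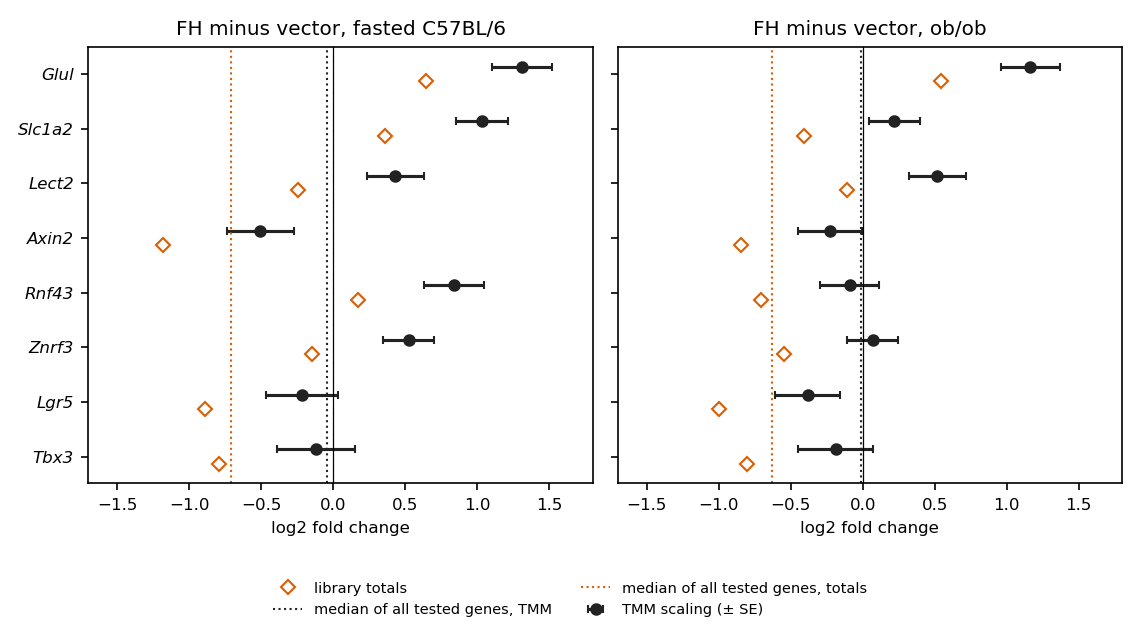
FH minus vector log2 fold change of each member except Rhbg in fasted (left) and ob/ob livers (right), on TMM scaling with its SE and on plain library totals. Glul lies above 0 in both panels on both scales, while Lect2, Znrf3 and the ob/ob value of Slc1a2 change sign with the scale.

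The test of the difference between the models called none of the 9 members with edgeR, where 8.42% of all genes tested were called, 4.77% higher and 3.65% lower. At an unadjusted p under 0.05 it gave 3 members a lower FH effect in ob/ob livers (Slc1a2, Rnf43 and Rhbg). Of these, Rhbg passed the low-count filter only through FH libraries, so its p is not a free observation. Its fasted vector libraries had 0 counts. DESeq2 called 2 (Slc1a2 and Rnf43), and edgeR without the low-count filter called the same 2. The FH responses of Slc1a2 and Rnf43 are thus not shown to differ between the models by the main test. Because sex went together with FH in the ob/ob model, it cannot be told apart from any difference of the FH effects.

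A ratio of counts of a pair of genes within a library needs no scaling between libraries. The pairs were chosen after the values had been seen, and the ratios are a description without a test. Glul had 197, 272 and 515 counts for each count of Axin2 in the fasted FH libraries, against 76.9, 137 and 64.2 in the fasted vector libraries. For ob/ob livers the ratio was 377, 287 and 248 with FH, against 102, 92.3 and 157 with the vector. So Glul and Axin2 moved apart in both models, with no overlap between groups. Glul to Lgr5 behaved in the same way, at 501, 368 and 782 in fasted FH against 177, 260 and 131 in fasted vector libraries, and at 337, 345 and 323 in ob/ob FH against 157, 83.4 and 121 in ob/ob vector libraries. Rnf43 to Axin2, both of them negative regulators of the pathway, was 3.92, 3.75 and 3.51 in fasted FH against 1.51, 1.62 and 1.35 in fasted vector libraries. The same ratio in the ob/ob model was 2.50, 2.74 and 2.76 with FH and 2.28, 2.34 and 2.81 with the vector, and these groups overlapped. Slc1a2 to Glul separated the ob/ob groups, with 0.0691, 0.0622 and 0.0675 in ob/ob FH against 0.135, 0.148 and 0.104 in ob/ob vector libraries, while the fasted groups overlapped at 0.269, 0.196 and 0.199 with FH and 0.199, 0.264 and 0.335 with the vector.

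**Figure D3:**
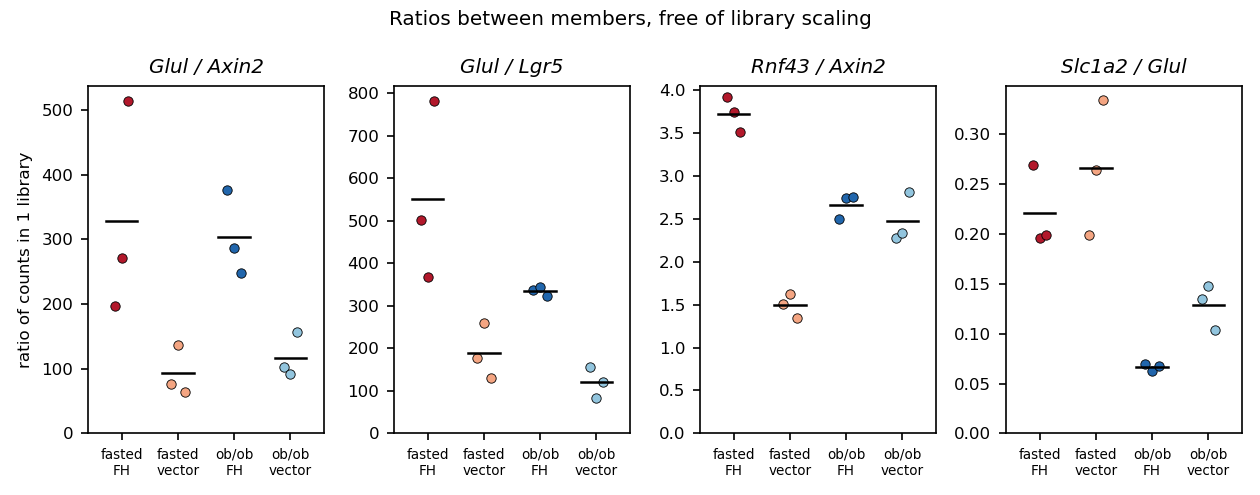
Ratios of counts of pairs of members within each library, with 1 point per library. Glul to Axin2 is higher in every FH library than in any vector library, from 197 to 515 against 64.2 to 157.

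Further up the pathway, several ligand genes fell in the fasted livers while several receptor genes rose on TMM scaling. Over all genes tested, 27.4% were called higher and 27.6% lower in the fasted livers, and 25.8% and 27.9% in the ob/ob livers. On plain totals the shares were 7.16% and 55.7%, and 6.83% and 53.3%. The counts of each list below are to be read beside these shares. Of 11 tested genes for Wnt ligands, R-spondins and their release, 4 were called lower with FH in the fasted livers, not far above that background. None was called higher by edgeR or DESeq2, nor at an unadjusted p under 0.05. On plain totals 9 of the 11 were lower in the fasted livers, and in the ob/ob livers 3 were lower and none higher. Wls, which carries Wnt proteins to the cell surface, had 3.39, 2.54 and 3.86 CPM in fasted FH against 9.29, 8.01 and 7.90 CPM in fasted vector libraries, and fell by 1.36 log2 units (SE 0.21, edgeR adjusted p = 0.000117). Wnt2, an endothelial ligand of the liver, had 2.97, 1.07 and 3.32 CPM against 6.52, 5.62 and 5.84 CPM and fell by 1.28 (SE 0.31, adjusted p = 0.00317). The groups did not overlap for either gene. With FH in ob/ob livers, 2 of the 11 were called higher (Wnt4 and Wnt5b, neither of them called on plain totals, with Wnt4 at 0.78 and Wnt5b at -0.06) and 1 lower (Wnt2b). Wnt2 had 4.66, 3.54 and 4.17 CPM with FH against 2.96, 3.57 and 3.03 CPM with the vector. The FH effect on Wnt2 was higher in the ob/ob than in the fasted livers by 1.65 log2 units (SE 0.43, edgeR adjusted p = 0.0325). Wnt2b fell in both models, by 2.08 (adjusted p = 0.000726) and by 2.45 (adjusted p = 0.000244), on 4 to 12 counts per FH library.

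Among 11 receptor and co-receptor genes, 7 were called higher in the fasted livers, and none lower by edgeR or DESeq2 nor at an unadjusted p under 0.05. They include Fzd8 (log2 0.92, adjusted p = 0.000822), Fzd4 (0.82, 0.0044) and Lgr4 (0.53, 0.00414), another R-spondin receptor. On plain totals none of the list was higher and 3 were lower, with Fzd8 at 0.25, Fzd4 at 0.15 and Lgr4 at -0.13. For the ob/ob livers 4 were called higher and 1 lower, with Lrp5, the co-receptor, at 0.93 (edgeR adjusted p = 0.000222), and on plain totals none was higher, Lrp5 included (0.31, adjusted p = 0.107), and 5 were lower. The ob/ob count of higher genes was 2 without ob/ob vector replicate 2, or without ob/ob FH replicate 3. Of 19 genes for beta-catenin, its destruction complex and Dishevelled, 8 were called higher and 4 lower in the fasted model, and 6 higher and 7 lower in the ob/ob model. Plain totals gave 1 higher and 10 lower in the fasted and 12 lower in the ob/ob livers. Axin1, the sister gene of Axin2 that is not a target, rose by 0.76 (adjusted p = 0.000331) and by 0.52 (adjusted p = 0.00446) on TMM scaling, with 0.10 and -0.10 on plain totals. Apc, the scaffold of the complex, fell by 1.31 in the ob/ob livers (edgeR adjusted p = 1.39e-05). Of 15 TCF/LEF factors and coactivators, 1 was higher and 2 were lower in the fasted livers, and 2 were higher and 3 lower in the ob/ob model. Plain totals gave 11 lower in the fasted and 10 lower in the ob/ob livers, and none higher. Tle2, a corepressor of this family, fell by 2.13 (adjusted p = 0.000155) and by 2.17 (adjusted p = 9.86e-05).

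Other target genes of the pathway, not all of them feedback genes, were also mixed. Of 13 tested, 5 were called higher and 2 lower in the fasted livers, and 6 higher in the ob/ob livers. Plain totals gave 4 lower in the fasted livers, and 1 higher and 3 lower in the ob/ob model. Ccnd1, which encodes cyclin D1, rose by 1.87 log2 units in the ob/ob livers (edgeR adjusted p = 1.3e-05; 1.25 on plain totals). In the fasted livers it rose by 0.84 (adjusted p = 0.00703) on TMM scaling and was not called on plain totals (0.17, adjusted p = 0.55). Zfp703 and Dact2 rose in both models on TMM scaling, Zfp703 by 1.21 and 0.99, and Dact2 by 0.77 and 0.81, and none of these 4 values was called on plain totals. The fasted count of higher genes on this list was 3 without fasted vector replicate 1, or without fasted FH replicate 2.

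Many genes of the pericentral zone outside the 9 members rose. This list includes cytochrome P450 genes, which were left out of the members. Of 23 tested, 15 were called higher in the fasted and 17 higher and 2 lower in the ob/ob model, with medians of 1.15 and 1.30 (0.47 and 0.68 on plain totals). On plain totals 8 were higher and 2 lower in the fasted livers, and 13 higher and 3 lower in the ob/ob model. Gulo, of vitamin C synthesis, rose by 1.21 (edgeR adjusted p = 1.96e-05) and by 1.48 (adjusted p = 4.49e-06), and Oat, which links ornithine to glutamate, rose by 2.08 in the ob/ob livers (adjusted p = 1.28e-05). Genes of the opposite, periportal zone also rose, 14 of 19 in the fasted and 12 of 19 in the ob/ob livers, with medians of 0.91 and 0.98 (0.24 and 0.35 on plain totals). On plain totals 5 were higher and 3 lower in the fasted livers and 7 higher in the ob/ob livers. Without fasted vector replicate 1 the fasted count was 7, and without fasted vector replicate 3 it was 9. Hepatocyte markers without a zone rose too, 12 of 12 and 10 of 12, with medians of 1.41 and 1.16 (0.74 and 0.53 on plain totals). The log2 fold changes of Glul in both models and that of Slc1a2 in the fasted livers were therefore within the range of hepatocyte genes at large. On TMM scaling those of Axin2, Lgr5, Tbx3, Rnf43, Znrf3 and Lect2 lay below the medians of all 3 lists in both models. So did that of Slc1a2 in the ob/ob livers. Among 14 genes of ammonium, glutamate and glutamine handling, 10 were higher and 2 lower in the fasted livers and 10 higher and 1 lower in the ob/ob model, with Got2 at 1.87 (adjusted p = 2e-06) and 1.62 (adjusted p = 2.54e-06). On plain totals 5 were higher and 2 lower in the fasted livers, and 6 higher and 3 lower in the ob/ob model. The medians were 0.95 and 0.99 (0.28 and 0.36 on plain totals). Oat is on this list as well as the pericentral one, and lists share other genes, so their counts are not independent.

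**Figure D4:**
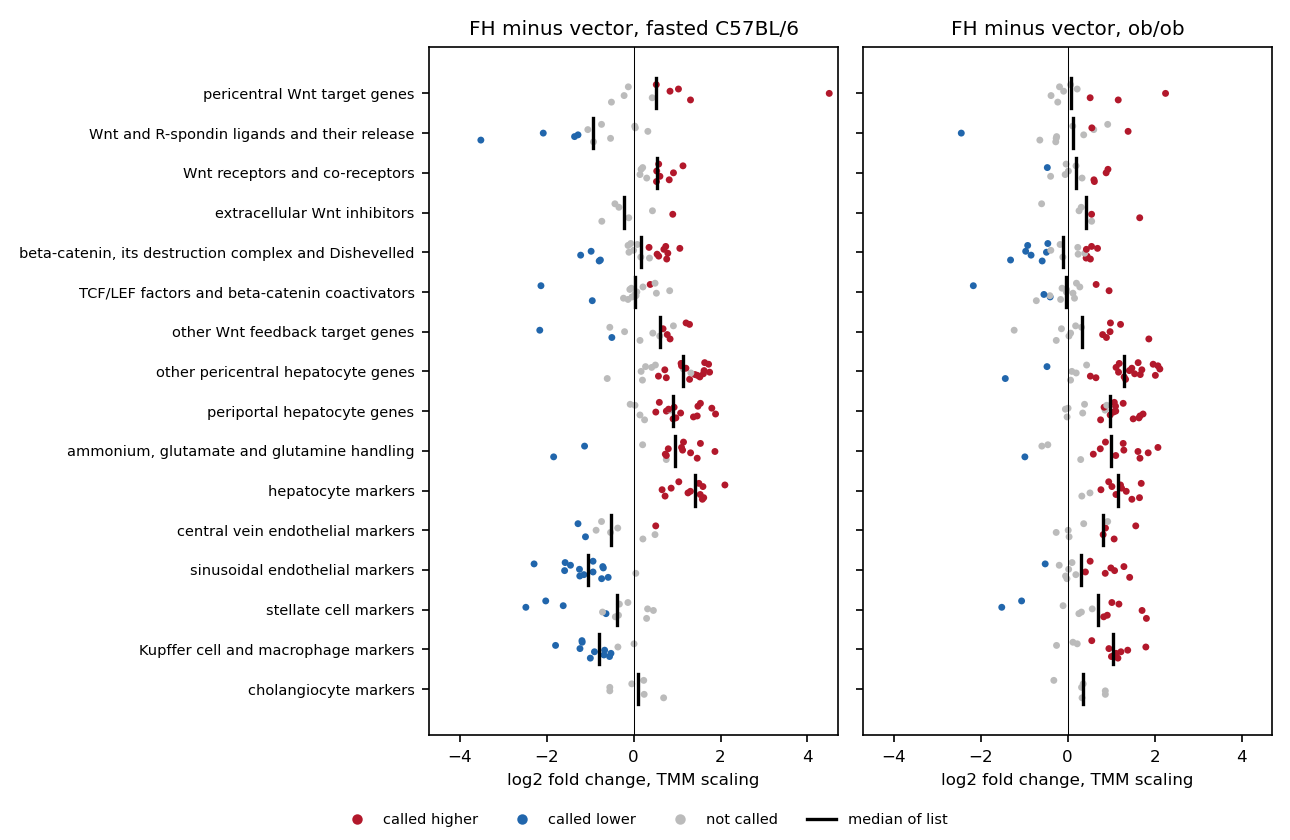
FH minus vector log2 fold changes on TMM scaling for the members and 15 lists of related genes in fasted (left) and ob/ob livers (right), 1 point per tested gene, coloured by edgeR call, with a bar at each list's median. Rhbg in the fasted panel is drawn at the edge. The sinusoidal markers sit at a median of -1.04 in the fasted and 0.30 in the ob/ob livers (-0.32 on plain totals).

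The markers of other liver cells moved with the virus, and their part in the results was not tested. The summed level of 12 hepatocyte markers was 193200 to 202900 CPM in fasted FH and 59710 to 82820 CPM in fasted vector libraries, and 181900 to 209800 CPM in ob/ob FH and 61000 to 78200 CPM in ob/ob vector libraries. That of 14 sinusoidal endothelial markers was 249 to 270 CPM in fasted FH against 523 to 665 CPM in fasted vector libraries, and 13 of the 14 were called lower. With the ob/ob mice it was 480 to 562 CPM with FH against 387 to 472 CPM with the vector, and 7 were called higher and 1 lower. On plain totals that turned round, with sums of 396 to 509 CPM against 531 to 623 CPM, and 3 were higher and 7 lower. That of 9 central vein endothelial markers, which include Wnt2 of the ligand list, was 25.8 to 34.0 CPM in fasted FH against 36.6 to 41.4 CPM in fasted vector libraries, and 59.0 to 72.8 CPM in ob/ob FH against 39.7 to 40.4 CPM in ob/ob vector libraries (48.6 to 66.1 against 52.4 to 55.4 CPM on plain totals). Of 12 Kupffer cell and macrophage markers, 10 were called lower in the fasted and 9 higher in the ob/ob livers, and of 12 stellate cell markers, 4 were lower in the fasted and 6 higher and 2 lower in the ob/ob model. On plain totals 11 Kupffer markers were lower in the fasted livers, and 4 were higher and 1 lower in the ob/ob model. The same scale gave 9 stellate markers lower in the fasted livers, and 2 higher and 3 lower in the ob/ob model. The fasted Kupffer count was 3 lower without fasted vector replicate 2 and 6 lower without fasted FH replicate 1. No marker of these lists was at 0 in all libraries of a group. The fall of Wnt2 and Wls in the fasted livers thus went with lower sinusoidal markers. Glul rose in both models, whereas the sinusoidal markers fell in the fasted livers and, in the ob/ob livers, were mostly higher or lower depending on the scale. The FH effect on all 14 sinusoidal markers was called higher in ob/ob than in fasted livers by the test of the difference. Of all genes tested, 4.77% were. Sex went together with FH in the ob/ob model, so it cannot be told apart from this difference.

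The models also differed in the members. Strain, leptin, diet and fasting all differ between ob/ob and fasted mice and cannot be told apart, and in the FH libraries sex differs as well. With the vector, 4 of 9 members were called higher in ob/ob than in fasted livers (Lect2, Lgr5, Rnf43 and Glul), where 9.36% of all genes were. None was called lower by edgeR or DESeq2, where edgeR called 8.18%, and 1 member, Slc1a2, was lower at an unadjusted p under 0.05. The median was 0.63, beside -0.00 over all genes tested. With FH, 2 were called higher (Lect2 and Lgr5), where 18.6% of all genes were, and 1 lower (Slc1a2), where 21.6% were. Plain totals gave 6 higher with the vector, against 17.9% of all genes (4.21% were lower), and 5 higher and 1 lower with FH, against 26.5% and 9.70%. Groups did not overlap for 5 members with the vector, all of them higher, where 14.8% of all genes were higher and 14.8% lower without overlap. With FH they did not overlap for 4 higher members and 1 lower, where 25.4% of all genes were higher and 31.3% lower.

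Lect2 and Lgr5 were higher in the ob/ob livers under both viruses. Lect2 was 2.84-fold higher with FH (log2 1.51, SE 0.20, edgeR adjusted p = 0.000106), at 204 ± 34.3 CPM in ob/ob FH and 71.8 ± 11.4 CPM in fasted FH livers (SD, n = 3 each). It was 2.67-fold higher with the vector (log2 1.42, SE 0.20, adjusted p = 0.000454), at 142 ± 22.5 CPM in ob/ob vector and 53.3 ± 13.03 CPM in fasted vector livers. Lgr5 was 2.20-fold higher with FH (log2 1.14, SE 0.24, adjusted p = 0.0023), at 6.90 ± 0.575 CPM in ob/ob FH and 3.13 ± 0.887 CPM in fasted FH livers, and 2.47-fold higher with the vector (log2 1.30, SE 0.24, adjusted p = 0.00237), at 8.98 ± 2.17 CPM in ob/ob vector and 3.65 ± 0.586 CPM in fasted vector livers. For both genes every ob/ob library stood above every fasted library. Rnf43 was 1.98-fold higher in ob/ob than in fasted vector livers (log2 0.98, SE 0.21, adjusted p = 0.0062), and with FH the difference was 0.05 (SE 0.20, adjusted p = 0.863).

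Slc1a2 went the other way in the FH livers, at 153 ± 17.8 CPM in ob/ob FH and 355 ± 69.5 CPM in fasted FH livers, and fell by 1.21 log2 units (SE 0.18, edgeR adjusted p = 0.000217). With the vector its difference was -0.40 (SE 0.18, adjusted p = 0.141). On plain totals the Slc1a2 differences were -0.96 (edgeR adjusted p = 0.000996) with FH and -0.19 (adjusted p = 0.473) with the vector. For Glul the ob/ob vector livers stood at 1029 ± 107 CPM and the fasted vector livers at 665 ± 118 CPM, a difference of 0.63 (SE 0.21, adjusted p = 0.0494) that passed the test narrowly. On plain totals this difference was 0.84 and passed the test (edgeR adjusted p = 0.00634). On TMM scaling it missed the test when any of 5 of the 6 libraries was left out. The value was 0.64 (adjusted p = 0.0963), 0.76 (0.0503) and 0.50 (0.176) on leaving out fasted vector replicates 1, 2 and 3 in turn, and 0.62 (0.115) and 0.56 (0.136) on leaving out ob/ob vector replicates 1 and 3. With FH the difference was 0.49 (SE 0.21, adjusted p = 0.0748), and it passed the test without fasted FH replicate 3 (0.74, adjusted p = 0.014) and on plain totals (0.74, adjusted p = 0.00702). By mean level on TMM scaling Glul ran, from high to low, ob/ob FH, fasted FH, ob/ob vector and fasted vector, and the ob/ob FH and fasted FH libraries overlapped. On plain totals the ob/ob vector mean (1383 CPM) stood above the fasted FH mean (1202 CPM). On TMM scaling Lgr5 ran ob/ob vector, ob/ob FH, fasted vector and fasted FH, with overlap between the viruses and none between the models.

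**Figure D5:**
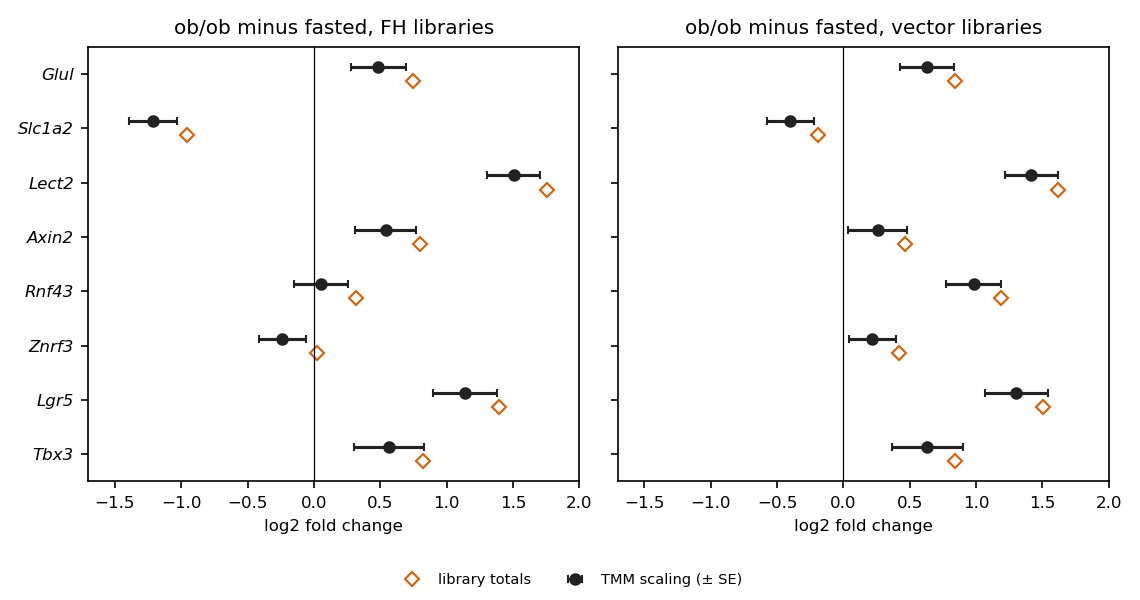
Log2 fold change of ob/ob minus fasted livers for 8 members in FH (left) and vector libraries (right), on TMM scaling with its SE and on plain library totals. Lect2 and Lgr5 lie above 1 in both panels, and Slc1a2 lies below 0 in both. Rhbg is left out because its fasted vector libraries had 0 counts.

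The genes whose log2 CPM was most like that of a member over the 12 libraries were found among all genes tested, as a description of points that share 4 groups and their sequencing depth. For Glul they were Noc4l (Pearson r = 0.983), Tmem97 (0.979) and Acot7 (0.979). For Lect2 they were Ebpl (0.982), Ptgr1 (0.977) and Nqo2 (0.972), and for Slc1a2 Atg2a (0.957), Zfp787 (0.954) and Ftsj3 (0.953). Lgr5 was most like Mroh2a (0.944), Ap1g2 (0.936) and Nid2 (0.933), and Rhbg like Entpd5 (0.978), Msra (0.974) and Epm2a (0.974). The feedback genes had weaker matches, with Cdc42ep3 at 0.904 for Axin2, Fnip2 at 0.901 for Rnf43 and Fam53c at 0.896 for Znrf3. Tbx3 was most like Dynll1 (0.947). No member was among the 3 nearest genes of another member.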

How the data were processed

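The values are raw counts for each gene in 12 mouse liver libraries, as the authors deposited them. Per the labels' protocols, total RNA (1 μg, TRIzol) went into a stranded Illumina mRNA kit. The aligner STAR 2.7.11a and the build GRCm39 are named in the submitters' processing notes. How reads were assigned to genes (tool, gene annotation, strand) is not stated in the sources at hand. Coordinates and overlaps came from GENCODE and RefSeq tables on GRCm38, joined by symbol.

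All 12 libraries were fitted in 1 edgeR 4.0.16 model (R 4.3.3; quasi-likelihood F test, TMM scaling, 4 groups, 8 residual degrees of freedom) after filterByExpr (10 counts, 15 in total). The model was tested on simulated data with few changed genes, as many up as down, and with the TMM factors taken as true. That test cannot decide between TMM scaling and plain totals. There were 5 comparisons: FH minus vector for fasted and for ob/ob livers, the second effect minus the first, and ob/ob minus fasted livers under each virus. Adjusted p is Benjamini-Hochberg over the 15228 of 28566 genes with any count that passed the filter, called under 0.05. SE is the size of the log2 fold change over the square root of F, and ± is the SD. DESeq2 1.42.0, library totals, other filters, the replicate block, the groups compared alone and each library left out were alternatives, and thinning to equal depth was added after the data were seen. Named are all members, Fh1, up to 4 called genes with the smallest adjusted p per list, and the 3 genes with the highest r; Wnt2 in the ob/ob livers and Tbx3os1 were added later. A gene that this rule names is not reported here. The members and lists were chosen with earlier results of these data known.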

Additional observations from a re-analysis of the deposited data

How the results depend on the processing

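On plain library totals 2 members were higher and 3 lower with FH in fasted livers, 1 higher and 5 lower in ob/ob livers, and 5 higher in ob/ob than in fasted FH livers. Signs turned there for Znrf3 (-0.15) and Lect2 (-0.25) in fasted livers, for Znrf3 (-0.55), Slc1a2 (-0.41) and Lect2 (-0.11) in ob/ob livers, and for Znrf3 (0.021) and Fh1 (0.0012) between the FH groups. A filter of 1 CPM in 3 libraries gave 3 higher and 1 lower in fasted livers and 1 higher in ob/ob livers, and thinning to equal depth gave 3 higher and 1 higher. Rhbg was not tested in either. Thinning turned the difference of the FH effects on Tbx3 to 0.035 and the Rnf43 value between FH groups to -0.011. DESeq2 and the fit without a filter each called 2 members lower for the difference of the FH effects. The fit without a filter, and the one of only the groups compared, called 5 higher in ob/ob than in fasted FH livers. Causes were not tested.

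With each library left out in turn, the fasted count ran from 4 to 5 higher and 0 to 1 lower, the ob/ob count from 2 to 3 higher, and the difference from 0 to 1 lower. Values that turned sign in these fits ran from -0.36 to 0.14 (Tbx3, fasted), -0.37 to 0.080 (Tbx3, ob/ob), -0.30 to 0.049 (Rnf43, ob/ob), -0.090 to 0.21 (Znrf3, ob/ob), -0.13 to 0.25 (Rnf43, between FH groups) and -0.75 to 0.21 (Tbx3os1, between FH groups). For the difference of the FH effects they ran from -0.31 to 0.11 (Glul), -0.34 to 0.081 (Lgr5), -0.33 to 0.19 (Tbx3) and -0.046 to 0.26 (Lect2). None of these was a called value.

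Samples share replicate numbers across groups. The 18 same-numbered pairs had correlations of -0.147 to 0.156 in their deviations, 4 of them over 0.1. Pairs with different numbers ran from -0.214 to 0.204. The correlations thus gave no sign of pairing by number, but they cannot show that the libraries are unpaired. With the replicate block, Lect2 gained a call in fasted livers (0.45, edgeR adjusted p = 0.0144) and Glul lost that between the vector groups (0.62, adjusted p = 0.0764), and the other 43 of 45 member results kept their side of the threshold. Depth limits Rhbg, at 0 to 23 counts.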
